A study of Rattus norvegicus with 448 samples.

Results

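Livers of outbred rats were compared at the ends of a ranking by Lcn2, the gene of lipocalin 2, a secreted protein that binds the iron carriers of bacteria. The study sequenced liver RNA of rats aged 17 weeks to relate gene expression to metabolic traits. All samples carry the same labels of tissue and age, and differ in a title number and, where given, an identifier. The labels name this identifier as common with adipose tissue. They state no treatment, sex, genotype or batch. Of 430 livers with a column of values, 38 had fewer than 15000 genes above 0 and were left out, and 18 further labelled livers are not analysed here. The 40 livers with the highest and the 200 with the lowest Lcn2, 10.2% and 51.02% of those kept, were chosen by the Lcn2 level itself, and the other 38.8% lay between them. Neither group is a treatment or a genotype, and Lcn2 is left out of the tests. The ID ENSRNOG00000013973 was taken as Lcn2 because the definition of the comparison gives this pair, while the name table used here held 0 of the 16796 gene IDs of the data. Pathway, plasma protein, neutrophil, macrophage and hepatocyte marker lists could therefore not be applied. The labelled tissue was not checked against its markers.

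Lcn2 is an acute phase gene. In liver it is made by hepatocytes when cytokines such as interleukin-1 and interleukin-6 reach them, through NF-kB, C/EBP and STAT3, and it is also stored in the granules of neutrophils. In bulk liver RNA, fewer or more cells of a type and less or more RNA per cell cannot be told apart.

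The promoter is shown because Lcn2 is the gene the ranking rests on. It is the RefSeq sequence of build GRCr8, chr3:36081731-36082030, minus strand, from 250 bases before the start of the gene to 50 bases after it. Capitals mark matches to the NF-kB consensus and to TTNCNNAA (C/EBP-like), searched on both strands.

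Lcn2: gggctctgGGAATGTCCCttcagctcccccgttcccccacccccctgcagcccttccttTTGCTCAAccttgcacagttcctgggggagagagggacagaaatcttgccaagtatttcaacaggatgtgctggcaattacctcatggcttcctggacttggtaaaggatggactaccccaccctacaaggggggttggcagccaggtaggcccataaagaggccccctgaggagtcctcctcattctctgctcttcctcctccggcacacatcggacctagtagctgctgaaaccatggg

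The NF-kB consensus matched 1 time, on the opposite strand, as GGAATGTCCC from base 9 of this window. The C/EBP-like match TTGCTCAA begins at base 60 and does not overlap it. Both matches lie nearer the upstream end of this window than the start of the gene. No match was found to TTCNNNGAA (STAT-like) or TATAAA in this window. Of the 33469 rat promoters of this length, 7.51% held the NF-kB consensus, 41.3% the C/EBP-like letters, 8.87% the STAT-like letters and 14.2% TATAAA. A match describes the letters and is no evidence of binding. The patterns were chosen after the data were seen, and the NF-kB consensus replaced a looser pattern whose matches had been seen.

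Lcn2 was near the limit of detection in most livers and clearly present in a minority. Levels are in FPKM, a read count divided by gene length and scaled in each library by the authors. Of the livers kept, 81 (20.7%) were at 0 and 32.4% lay above 0 and up to 0.25 FPKM. From 0.25 to 1.0 FPKM, successive steps of 0.25 held 23, 22 and 21 livers. A further 52 livers lay from 1.0 to 1.5 FPKM, 25 from 1.5 to 2.0, 28 from 2.0 to 3.0 and 13 above 3.0. The level thus had a sharp peak near 0, a flat stretch up to 1.5 FPKM and a long upper tail. The 40 highest livers ranged from 2.06 to 7.48 FPKM with a median of 2.81 and quartiles of 2.34 and 3.54. The 200 lowest ranged from 0 to 0.224 with a median of 0.0692, and those between from 0.225 to 2.01 with a median of 1.02. Neither boundary is a gap: the last liver of the low group had 0.224 FPKM and the next 0.225, and the last liver below the high group had 2.01 against 2.06 for the first within it. These values chose the groups and are a description.

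**Figure D1:**
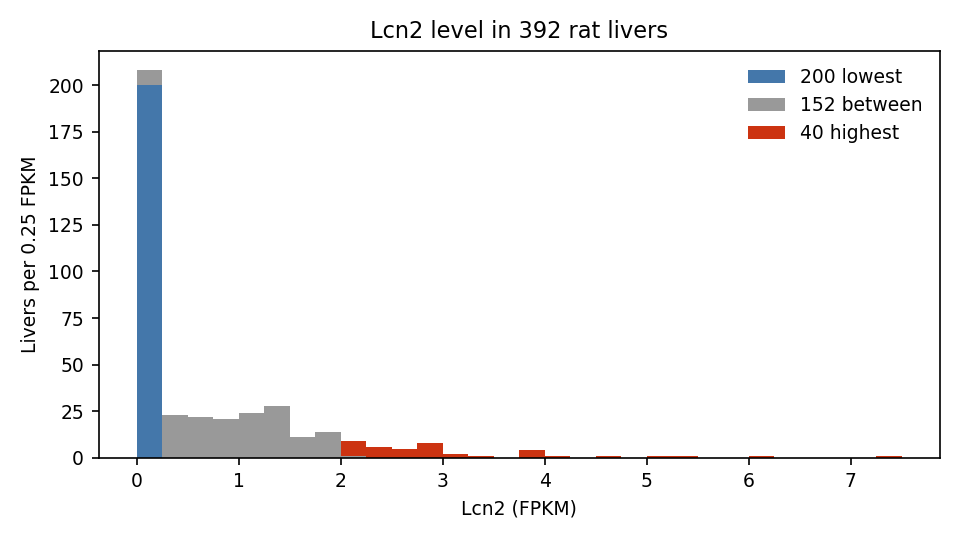
Number of livers (vertical axis) by Lcn2 level in FPKM (horizontal axis, steps of 0.25), coloured by set. The 200 lowest livers fill the peak near 0, those between form a flat stretch that thins out above 1.5 FPKM, and the 40 highest form the tail from 2.06 to 7.48 FPKM.

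The contrast rests on few reads per liver. Every deposited value is a whole number of reads once the step of its library and the length of its gene are taken out, so the reads could be recovered. Livers of the high group had 28 or more Lcn2 reads with a median of 54 and quartiles of 43.5 and 74, those between 4 to 78 with a median of 23.5, and those of the low group 0 to 6 with a median of 2. The exact Poisson 95% interval of 28 reads is 18.6 to 40.5, and that of 6 reads is 2.2 to 13.1. For the livers at 0, an upper limit of 3 reads allows 0.0846 to 0.224 FPKM depending on the library, with a median of 0.133, while the low group reached 0.224. The read number was even in 97.5% of the high livers and 92.8% of those between, none of which were at 0. This is as when both ends of a pair are counted, so reads are not independent molecules. The intervals are then too narrow and the limit of 3 reads too low. Both cover counting error only.

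Livers that share the first part of their identifier were more alike in Lcn2 than livers at large. The labels do not say what this part means. Among the livers kept, 81 first parts were shared by more than 1 liver, which gives 99 pairs. The level correlated over these pairs with r = 0.471 on the log2(FPKM + 1) scale, each pair entered in both orders, as a description. The median absolute difference within pairs was 0.183 (log2), against 0.601 over all 76636 pairs of livers. The partners of high livers were not uniformly high. In the 21 pairs with at least 1 high liver, the other liver was high in 3, between in 10 and low in 8. The highest liver of all, with 7.48 FPKM, had a partner with 2.81, which was also in the high group. In contrast, a liver with 3.98 FPKM had a partner at 0, and another with 3.15 FPKM also had a partner at 0. Sharing pairs thus hold both matched and opposed levels.

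**Figure D2:**
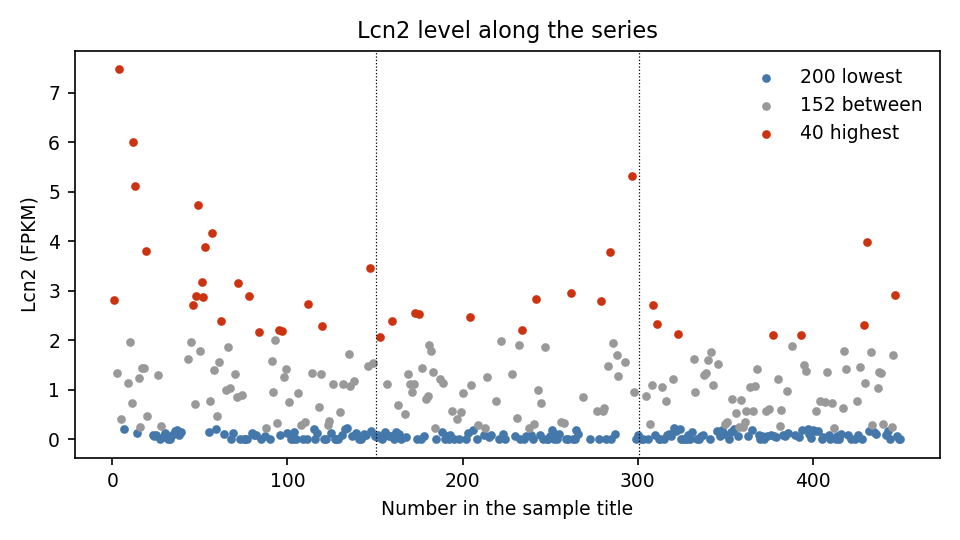
Lcn2 level in FPKM (vertical axis) of each liver kept against the number in its sample title (horizontal axis), coloured by set, with dotted lines after 150 and 300. High livers are most frequent at low numbers: 16.03%, 9.24% and 5.63% of the livers in successive blocks.

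The high livers also differed from the low ones in title number, depth and overall profile. These measures are not all independent of the choice, since livers with fewer than 15000 genes above 0 were left out and the ranking used levels scaled in each library. Title numbers had a mean of 168.9 ± 134.9 (SD, n = 40) in the high and 239.5 ± 125.4 (n = 200) in the low group. The high group made up 16.03% of the livers numbered up to 150, 9.24% of those above 150 and up to 300, and 5.63% of those above 300. Genes above 0 had a median of 15688 (quartiles 15440 and 15934) against 15933 (quartiles 15732 and 16108). Recovered reads were 22195626 ± 5141958 against 25837639 ± 5806480, and the summed FPKM was 584158 ± 55487 against 548403 ± 45468. On the first principal component of all genes tested, which held 40.05% of the variance over the livers kept and is given in SD units with more genes detected upward, the means were -0.612 ± 1.06 and 0.0912 ± 0.943. In two-sided permutation tests with 100000 resamples over these 5 measures, the adjusted p was 0.0013 for title number, 0.00017 for genes above 0 and for reads, and 0.0001 for summed FPKM and for the component. The high group lay lower on the component in each block of title numbers, with means of -0.53, -0.628 and -0.805 against 0.306, -0.112 and 0.0878. The number of genes above 0 is a covariate in the tests that follow. The part of the other measures in the gene differences was not tested beyond the fits that add title number or the component, given below. As a whole, the profiles of high livers were barely more alike: the median correlation of centred levels was 0.0156 over the 780 pairs of high livers, 0.0105 over pairs of low livers and -0.0182 between the groups.

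Apart from Lcn2 itself, high-Lcn2 livers differed from low-Lcn2 livers in a limited number of genes in the main fit, and by small amounts on its scale. In limma's test on log2(FPKM + 1), with the number of genes above 0 as covariate, 2.43% of 12185 genes were higher and 0.451% (55 genes) were lower at a Benjamini-Hochberg adjusted p under 0.05, 2.88% in all. The higher genes had a median difference of 0.24 (log2) with quartiles of 0.18 and 0.33, and the 55 lower genes one of -0.16. The median over all genes tested was -0.0082. On this scale no gene tested reached a difference of 1, the largest being -0.74. A size of 0.5 was reached by 9 of all genes tested, among them 3 called higher and 3 called lower. The pseudocount of 1 understates differences at low levels, as given below for ENSRNOG00000005903. The higher genes were low to moderate in level, with a median of 2.27 (log2) against 3.0 over all genes tested, and the lower genes had a median of 2.64. The lower genes also went with the first component, with a median r of 0.658 over the livers kept, against -0.255 for the higher genes and 0.101 for all genes tested. Their inferred length had a median of 5946 bases, against 3550 for the higher genes and 4234 for all.

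**Figure D3:**
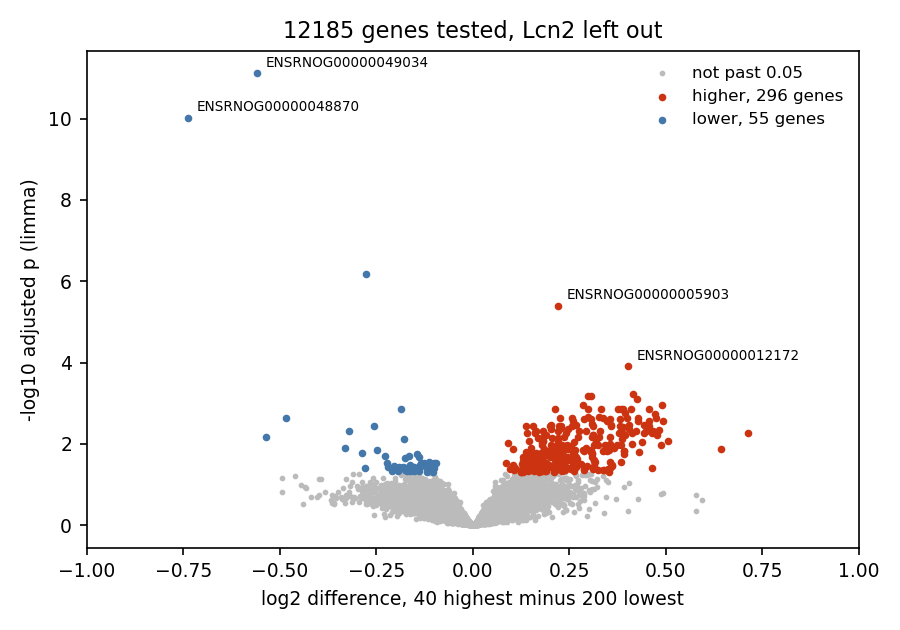
Log2 difference between the 40 highest and 200 lowest livers (horizontal axis) against -log10 of the adjusted p from limma (vertical axis) for 12185 genes, with the higher (2.43%) and lower (0.451%) genes coloured. A pair of lower genes, ENSRNOG00000049034 and ENSRNOG00000048870, stands above all others.

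The size of this set, and the direction that held more genes, depended strongly on the model. Without the covariate, 21.5% of genes were higher and 32.2% lower. Lower genes also outnumbered higher ones with a spline of the title number as a further covariate (6.33% against 6.16%). The same held with the 20 highest livers (7.34% against 5.93%) and in a slope over all livers kept (9.95% against 8.6%). With no minimum number of genes above 0, 27.7% were lower and 20.9% higher. With 1 liver for each first part of the identifier, which left 30 high and 150 low livers, 2 genes were higher and 4 lower. Without the 5 livers highest in Lcn2, 1.26% were higher and 0.189% lower. With the first component as a further covariate these shares were 1.61% and 0.172%, and 50.4% of the genes called above were called again in the same direction.

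The genes printed here are the 2 with the smallest p in each direction, picked after their values were seen. Their names and functions are not given, since the IDs could not be paired with symbols, and whether they share reads with near-identical copies is not known. ENSRNOG00000048870 fell most. It ranged from 4.42 to 27.7 FPKM with a median of 12.2 in the high livers, from 4.33 to 46.1 with a median of 17.95 in the livers between, and from 8.35 to 59.4 with a median of 22.5 in the low livers. The groups overlap, but 33 of 40 high livers lay below the low median and 7 below every low liver. The fitted difference was -0.74 (log2, SE 0.0901, adjusted p = 9.47e-11 in limma).

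ENSRNOG00000049034 was also lower. It had 0.676 to 5.15 FPKM with a median of 2.5 in the high livers and 1.06 to 8.11 with a median of 3.74 in the low livers, and the livers between had a median of 2.78. Its levels overlapped widely, with 34 of 40 high livers below the low median and 1 below every low liver. Its fitted difference was -0.56 (SE 0.0643, adjusted p = 7.68e-12). The pair of lower genes correlated with each other at r = 0.351 (Spearman rho = 0.347) over the livers between the groups, which describes these libraries only. This was not particular to the lower pair. In the same livers ENSRNOG00000049034 correlated at r = 0.367 with ENSRNOG00000012172, a gene higher in the high livers. All pairs of the 4 printed genes had a positive r there, from 0.217 to 0.554.

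Among higher genes, ENSRNOG00000012172 had 2.31 to 9.86 FPKM with a median of 3.98 in high livers and 1.15 to 7.07 with a median of 2.97 in low livers. Of the 40 high livers, 34 exceeded the low median and 5 exceeded every low liver. Its fitted difference was 0.40 (SE 0.0716, adjusted p = 0.000123), and with 1 liver for each first part it was 0.31 with an adjusted p of 0.114. ENSRNOG00000005903 had 0.348 to 2.27 FPKM with a median of 0.895 in high livers and 0.206 to 1.47 with a median of 0.671 in low livers, and 32 of 40 exceeded the low median. Its difference was 0.22 (SE 0.0351, adjusted p = 3.97e-06), a value that the pseudocount of 1 understates at levels this low. It was 0.48 with limma-voom on recovered reads, 0.33 with the 20 highest livers and 0.07 with a pseudocount of 5. A pseudocount of 5 also gave 0.22 for ENSRNOG00000012172 and -0.28 for ENSRNOG00000049034.

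**Figure D4:**
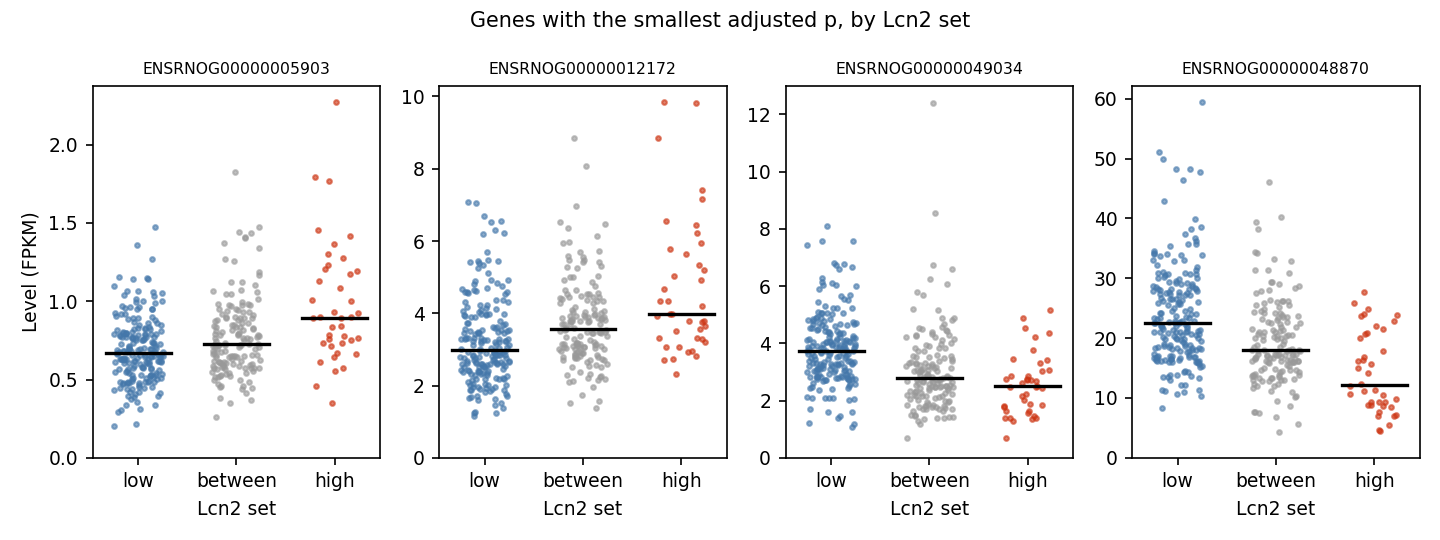
Level in FPKM (vertical axes, 1 panel a gene) of each liver in the 200 lowest, those between and the 40 highest by Lcn2; black lines are medians. From low to high, the medians run from 0.671 to 0.895 in ENSRNOG00000005903, from 2.97 to 3.98 in ENSRNOG00000012172, from 3.74 to 2.5 in ENSRNOG00000049034 and from 22.5 to 12.2 in ENSRNOG00000048870, with wide overlap.

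The values of these 4 genes in each of the 3 blocks of title numbers are a description, since the genes were picked on the same livers and their direction is largely fixed by that choice. ENSRNOG00000048870 differed by -0.881, -0.648 and -0.73 (log2; SE 0.156, 0.137 and 0.167) in the block up to 150, the block up to 300 and the last block, where 21, 11 and 8 high livers stood against 60, 62 and 78 low ones. ENSRNOG00000049034 differed by -0.496, -0.663 and -0.469 (SE 0.1, 0.12 and 0.117). ENSRNOG00000012172 differed by 0.544, 0.166 and 0.407 (SE 0.119, 0.106 and 0.137), and ENSRNOG00000005903 by 0.263, 0.146 and 0.219 (SE 0.059, 0.062 and 0.069). Adjusted over all genes in limma's test, all 4 passed the threshold in the block up to 150, ENSRNOG00000049034 alone passed in the next (adjusted p = 0.00604), and none passed in the last, where the smallest of the 4 was 0.0686. Genes past the threshold in limma's test were 1060 higher (8.7% of those tested) and 1644 lower (13.5%) in the block up to 150. Lower genes thus outnumbered higher ones there, while in the whole contrast 2.43% were higher and 0.451% lower. The next block had 0 higher genes and 1 lower (0.00821%), and the last had 0 and 0. Each block was a separate fit, so the calls of the whole contrast cannot be assigned to a block. Whether the blocks differ was not tested.

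The livers between the groups, which the contrast did not use, gave a second reading. They are not fully independent of it, since some share the first part of their identifier with livers of the contrast. In 10 of the 21 pairs with a high liver, the other liver lay between. Here the slope of each gene on Lcn2 was tested by limma with the same covariate, both on the log2(FPKM + 1) scale. No gene rose with Lcn2 and 1 gene fell at an adjusted p under 0.05, which is 0.00821% of 12185 genes. At an unadjusted p under 0.05 there were 878 genes (7.21%). The gene past the threshold was ENSRNOG00000048870, with a slope of -0.50 (SE 0.101, adjusted p = 0.0276), the gene with the largest difference between the groups. With 1 liver for each first part of the identifier, its slope was -0.45 with an adjusted p of 0.24, and no gene passed. ENSRNOG00000049034 had a slope of -0.19 (SE 0.086, adjusted p = 0.622). ENSRNOG00000012172 had 0.05 (SE 0.0763, adjusted p = 0.785) and ENSRNOG00000005903 -0.07 (SE 0.0424, adjusted p = 0.622), a sign opposite to its group difference.

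The slopes of the genes called between the groups are given beside those of all genes tested, as a description. Of the higher genes 42.9% had a positive slope, against 42.4% of all genes. At an unadjusted p under 0.05, 2.03% of them (6 genes) had a positive and 2.03% (6 genes) a negative slope, against 2.61% and 4.6% of all genes. The share with a positive slope turned with the fit: it was 22.6% with the first component as a further covariate, 18.6% with the component and title number, and 65.2% with 1 liver for each first part of the identifier, against 45%, 45.04% and 43.7% of all genes. It was 51.7% with limma-voom on recovered reads and 64.04% among those at 10 FPKM or more, against 43.4% and 53.25% of all genes. The median pairwise correlation of the higher genes over the livers between was 0.379, against 0.00873 over all pairs of genes tested. The higher genes were picked for the same direction, while all pairs mix both directions, so these medians are not like for like. Of the 55 lower genes, 46 had a negative slope (83.6%), against 57.6% of all genes tested, and 9 of them (16.4%) did so at an unadjusted p under 0.05, against 4.6% of all genes. With the first component as a further covariate 63.6% of the lower genes had a negative slope, against 55% of all genes. With the component and title number this share was 58.2%, against 54.96% of all genes. With 1 liver for each first part of the identifier it was 83.6%, against 56.3%. The median pairwise correlation of the lower genes was 0.371, with the limit given for the higher genes. Lcn2 spans a narrower range in the livers between than from low to high group, and a slope that misses the threshold does not show that a gene is unrelated to Lcn2.

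**Figure D5:**
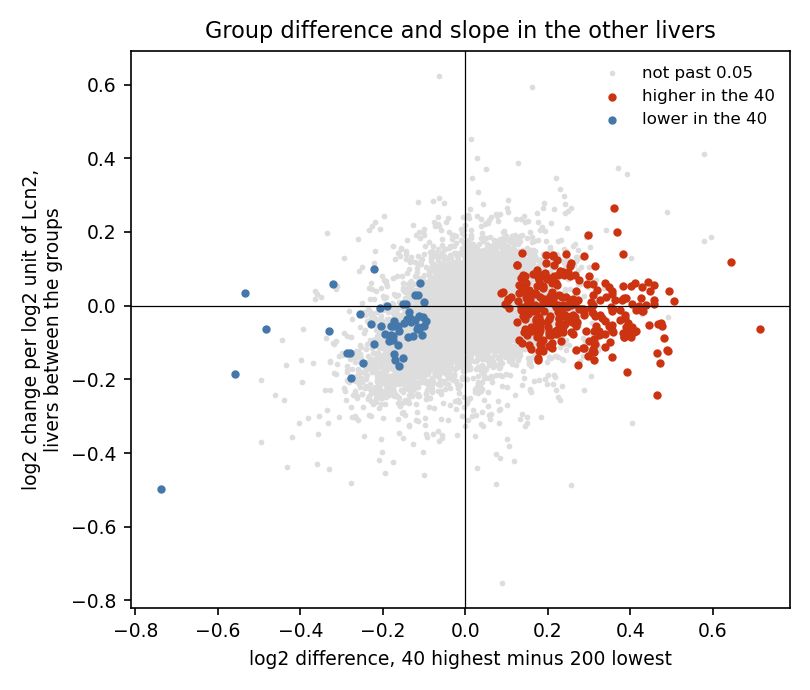
Log2 difference between the 40 highest and 200 lowest livers (horizontal axis) against the slope on Lcn2 in the livers between (vertical axis, log2 change per log2 unit of Lcn2), 1 point a gene. The higher genes scatter about a slope of 0, 42.9% of them above it, and 46 of the 55 lower genes lie below it, with ENSRNOG00000048870 lowest among them at -0.50.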

How the data were processed

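Paired-end reads of 37 bp from liver RNA extracted with Trizol were sequenced, per the labels. The tools named, per the submitters' processing notes, are STAR, Picard, featureCounts and DESeq2, with no role or version. For the genome build and its annotation, a name is not given in the sources used here, and no header states a unit. Its values were read as FPKM scaled per library by the authors, since all deposited values (100.0%) were whole reads (tolerance 0.001) after removal of a library step and a gene length. Of 448 labelled livers, 430 were matched to a column by the identifier in their labels and 392 had 15000 or more genes above 0, of which 152 lay between the groups. No column was matched to 18 livers, and 1 column of no labelled library was not used. The reads recovered came to a median of 24586326 a library (range 186437 to 61321582) over 430 livers.

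Genes at 1 FPKM or more in 10% of the 392 livers were tested with limma 3.58.1 in R 4.3.3 (eBayes with a variance trend) on log2(FPKM + 1). Benjamini-Hochberg adjustment covered 12185 genes (296 higher, 55 lower, 351 in all). The steps were tested on simulated reads, with changes placed in genes above a minimum of reads. Of 100 genes changed by 0.25 (log2), 63 were recovered, and of 100 changed by 0.5, 94 were, with 4 false calls. Smaller changes were not simulated. Permutation tests used scipy 1.17.1. Groups, lists and tests were chosen with earlier results of these data known. The rule for named genes asked for a gene symbol and so named none, and the gene lists could not be run. The labels do not say that each library is a separate animal, so p-values measure the spread between libraries and take them as independent, although those sharing part of an identifier were alike. Alternatives covered pseudocounts, filters, scaling, covariates, ranks, group sizes and shared identifiers. Limma-voom on recovered reads, the component with title number, the identifier as a block, the blocks of title numbers and the promoter patterns were chosen after the data were seen.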

Additional observations from a re-analysis of the deposited data

How the results depend on the processing

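The share of genes tested that were higher (2.43%) and lower (0.451%) became 1.6% and 0.296% among genes at 10 FPKM or more (6071 tested), 21.5% and 32.2% with no covariate, 1.61% and 0.172% with the first component as further covariate, 6.16% and 6.33% with a spline of the title number, 1.25% and 0.123% with both, 0.0164% and 0.0328% with 1 liver for each first part of the identifier, 5.93% and 7.34% with the 20 highest livers, 1.26% and 0.189% without the 5 highest, 8.6% and 9.95% as a slope over all livers kept, and 20.9% and 27.7% with no minimum number of genes above 0. The lower genes alone moved to 0.197% with normal scores and 0.205% with limma-voom on recovered reads. The cause was not tested. Both shares stayed within 1.5 times with pseudocounts of 5 and 0.5, no filter, upper quartile rescaling, the 100 lowest livers, and the first part of the identifier as a block (1.89% and 0.32%, estimated correlation 0.295).

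In the livers between the groups, 0 genes rose in each of the 12 alternatives. The 1 falling gene (0.00821% of genes tested) stayed 1 gene at 10 FPKM or more (0.0165%), became 2 (0.0164%) with the first component and with the component and the spline, and 0 with 1 liver for each first part. The group differences of ENSRNOG00000048870, ENSRNOG00000049034 and ENSRNOG00000005903 kept their direction and stayed past the threshold in all 18, 17 and 17 alternatives that tested them; ENSRNOG00000012172 did so in 16 of 17. Its slope between the groups, not past the threshold, turned from 0.0543 to -0.0155 with the component and the spline. At 0 to 6 reads, the order of livers within the low group is not resolved.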

Other observations

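The 38 livers left out for having fewer than 15000 genes above 0 had 7108 to 14970 such genes and 186437 to 15561650 recovered reads. Their Lcn2 ranged from 0 to 3.98 FPKM with a median of 0.314, and 16 of the 38 were at 0. Their Lcn2 reads had a median of 2 and a highest value of 40, so single reads weigh more in these levels than in the livers compared.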
